A study of Mus musculus with 12 samples.

Results

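The miR-23, miR-24 and miR-27 microRNAs (miRNAs) were followed in pancreatic islets, the small endocrine organs whose beta cells make insulin. The members were chosen by name: panel rows called miR-23a, miR-23b, miR-24, miR-27a or miR-27b, with rows ending in # (the other, starred strand of a hairpin) left out. This gave 5 spots with 1 assay each, among 750 miRNA spots and 846 spots in all, and each of the 5 carried a ratio. The labels list 6 LP0.5 samples and 6 Control samples, all from male C57BL/6 offspring aged 2 to 3 months. Dams of the LP0.5 group were fed a low-protein diet through pregnancy, and dams of the Control group a control diet. Both groups share collagenase isolation, hand-picking and an overnight recovery in culture medium before total RNA was taken. Whether islets of several mice were pooled is not stated in the sources used here. The comparison asks which islet miRNAs differ in adult offspring after this exposure in the womb.

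MiRNAs pair with messenger RNAs mainly through the seed, bases 2 to 8 from the 5′ end, and lower the output of their targets. The miR-23, miR-27 and miR-24 hairpins come in a pair of paralogous clusters, each read from 1 primary transcript. MiR-27 restrains adipocyte differentiation and represses Pparg, a lipid-handling transcription factor. MiR-23 represses glutaminase, which feeds glutamine into metabolism. MiR-24 has been described as a miRNA that sustains insulin gene transcription. All of them are also active in blood vessel endothelium.

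The mature mouse sequences are shown because they decide which members can share targets and which a PCR assay has to tell apart. They are from RefSeq on GRCm38.p6, the seed is in capitals, and 4 of the 5 members had an entry. The assays carry human names, and the sequences behind the assay designs were not used here.
miR-23a-3p: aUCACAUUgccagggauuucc
miR-27a-3p: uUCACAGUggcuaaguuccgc
miR-27b-3p: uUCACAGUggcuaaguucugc
miR-24-3p: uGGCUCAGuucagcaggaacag
MiR-27a-3p and miR-27b-3p share the seed UCACAGU and differ at 1 of 21 positions, C19U, counted from the 5′ end with the base of miR-27a first. Whether the assay of one also reads the other was not tested. The seed of miR-24-3p, GGCUCAG, was held by 5 of 1679 mature mouse names, and miR-24 was the only one of them found by name on the panel with a ratio. MiR-23a and miR-23b are likewise known as 1 seed family.

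The a cluster holds Mir23a, Mir27a and Mir24-2 in that order on the plus strand, at chr8:84208518-84208921 of GRCm38.p6, a span of 404 bases that lies inside no protein-coding gene of the RefSeq table. The b cluster holds Mir23b, Mir27b and Mir24-1 in the same order on the plus strand, at chr13:63300484-63301275, a span of 792 bases inside the bounds of Aopep, an aminopeptidase gene. Mir24-1 and Mir24-2 give the same mature miR-24-3p, so the single miR-24 assay cannot tell the clusters apart, whereas miR-23a and miR-27a stand for the a cluster and miR-23b and miR-27b for the b cluster.

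Levels were measured by TaqMan real-time PCR. The authors' deposited table has a linear ratio of low-protein to control islets for 656 of the 846 spots, with no value per sample and no error. The ratios below therefore come without a test, and the value in each sample and the level of each miRNA were not analysed here. By the heading a ratio above 1 is a higher level in LP0.5 islets. The direction rests on that heading alone: the study is known for reporting miR-199a-3p as raised in LP0.5 islets, while the authors' deposited table lists it at 0.422. Ratios are given as listed, and a reversed heading would turn the side of every one and every order of higher and lower. The panel has 2 sets of assays, A and B, and within each set the 8 spots of U6, a spliceosomal RNA, average a log2 ratio of 0, so ratios are relative to U6. In an islet preparation, fewer cells of a type and less RNA per cell cannot be told apart.

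All 5 miRNAs were listed close to 1, with miR-23a, miR-24, miR-27a and miR-27b slightly below it and miR-23b slightly above. In the authors' deposited table miR-27a was listed at 0.889 and miR-23a at 0.890. MiR-24 stood at 0.931 and miR-27b at 0.935 in the authors' deposited table. MiR-23b stood at 1.13 in the authors' deposited table. Apart from miR-23b, the members lay within a 1.05-fold range, and with it the range was 1.27-fold. Their median ratio was 0.931, beside 0.976 over the 304 miRNA spots of set A that carry a ratio, the set to which all 5 belong.

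None of the 5 members was at least 1.5-fold from 1, the limit used here for a ratio that stands away from 1, while 28.9% of the set A miRNA spots (88 of 304) and 35.3% of all miRNA spots (200 of 566) were. With 5 members, a count of 0 cannot be set apart from such a share. In set A, 38.2% of the miRNA spots were listed lower than miR-27a and 69.4% lower than miR-23b, so the members span the middle of the distribution. Of the 5 members 1 lay above 1, beside 47.7% of the set A spots.

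**Figure D1:**
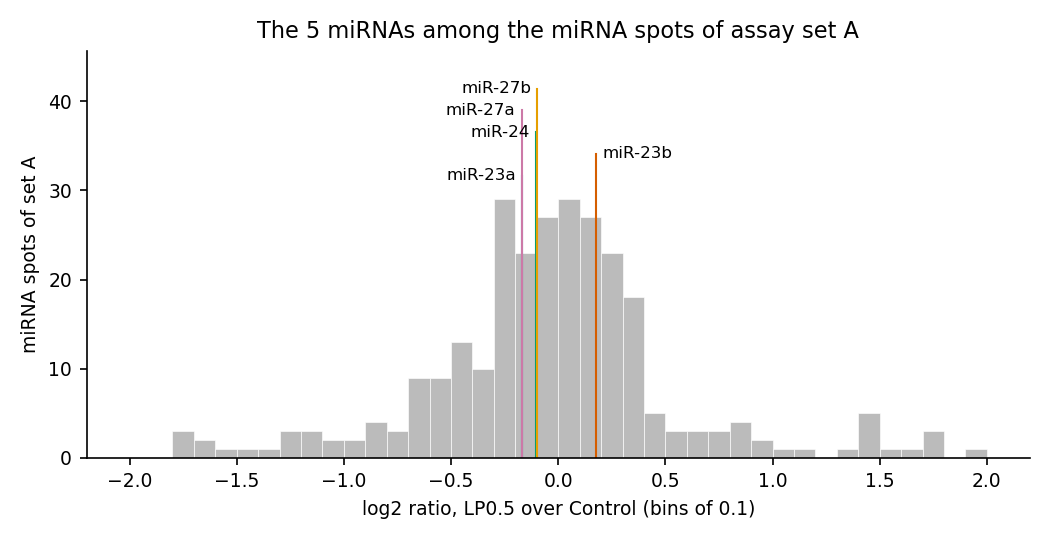
Histogram of the log2 ratio (LP0.5 over Control, x axis, bins of 0.1) of the miRNA spots of assay set A, with their number on the y axis and coloured lines at the 5 miRNAs. The 276 spots within 2 of 0 on the log2 scale are drawn and 28 lie outside; miR-23a, miR-24, miR-27a and miR-27b fall just left of 0 and miR-23b, at 0.18, just right of it.

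How near to 1 these values are can be set against repeated spots of 1 control assay, which share RNA and reference. Over the 40 spots of 5 small RNA controls in set A, the pooled SD of the log2 ratio around each control's mean was 0.15, a factor of 1.11. U6, the reference itself, is among the 5 and lowers this SD. Its spots ran only from -0.057 to 0.035, while those of snoRNA135 ran from -0.23 to 0.64. The log2 ratio was -0.17 for miR-23a and for miR-27a, -0.10 for miR-24 and for miR-27b, and 0.18 for miR-23b. The largest of these is thus a little over the SD of a repeated spot. Across 38 miRNA names measured by a pair of assays, the median distance between the ratios of a pair was 1.31-fold, wider than the distance of any member from 1. Such pairs can join a set A with a set B assay, as for miR-143 and miR-217, or assays named for different species, as for miR-214. All members lie in set A, and the distance within a pair carries the error of both its ratios. The pairs are thus a loose yardstick for a single ratio. Both yardsticks leave out the spread between mice.

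The choice of reference RNA moved the members about as far as they lay from 1. The other controls in set A were listed above 1 on average, so dividing by the mean of snoRNA135, snoRNA202, U87 and Y1 lowered every set A ratio by 0.20 on the log2 scale. On that reference the ratio was 0.776 for miR-27a, 0.777 for miR-23a, 0.813 for miR-24, 0.816 for miR-27b and 0.987 for miR-23b. All 5 were then below 1, as were 214 of the 304 set A spots. None of the 5 reached 1.5-fold, while 34 of the set A spots did so above 1 and 71 below. MiR-23b changed side with the reference: it stayed above 1 with snoRNA202 alone (1.02), U87 alone (1.03) or the set median (1.16), and was below 1 with Y1 alone (0.956) or snoRNA135 alone (0.944). The other members were below 1 with each of these references. The lowest value for any member was 0.742, for miR-27a against snoRNA135 alone.

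**Figure D2:**
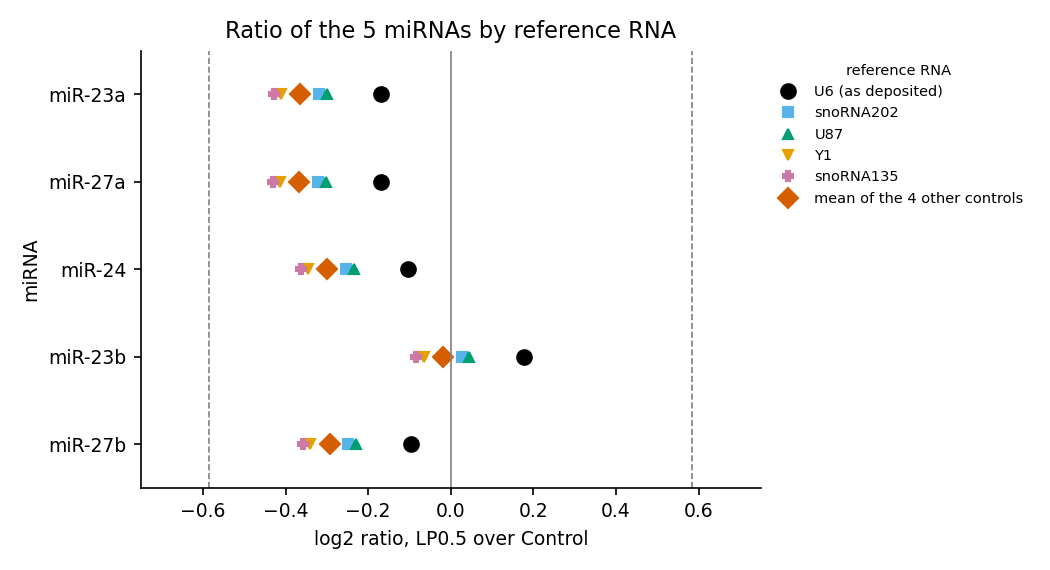
Log2 ratio (LP0.5 over Control, x axis) of the 5 miRNAs (rows), relative to U6 as deposited (black circles), to each other small RNA control and to the mean of the 4 others (orange diamonds). Dashed lines mark 1.5-fold from 1. Every symbol lies inside them, and the miR-23b row alone has symbols on both sides of 0.

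Between the clusters, the members with an a suffix were listed lower than those with a b suffix, by a small margin for miR-27 and a larger one for miR-23. MiR-27b was 1.05-fold above miR-27a, a log2 difference of 0.073. MiR-23b was 1.27-fold above miR-23a, a log2 difference of 0.35. By the control spots, U6 among them, a difference between 2 single spots of set A has an SD of 0.21. The miR-27 difference is thus 0.341 and the miR-23 difference 1.62 of such SDs. Averaged over miR-23 and miR-27 on the log2 scale, the ratio was 0.890 for the a cluster and 1.03 for the b cluster, a 1.16-fold difference to which miR-23 contributes most. With the ratio turned, the b member would be the lower of each pair, at 0.884 for miR-23b against 1.12 for miR-23a and at 1.07 for miR-27b against 1.12 for miR-27a. These differences lie within 1 assay set and do not depend on the reference RNA. They could not be tested, since no sample values were used.

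For scale, 20 families had an a and a b member with a ratio in set A, miR-23 and miR-27 among them. Only rows whose names give no arm were paired, so a family named by arm would be left out. Pairs were formed by the letters a and b alone. Whether the genes of a pair lie in separate clusters or share a seed was not checked, so they are a loose scale for a difference between clusters. The fold between a and b had a median of 1.13 over these families, with the middle part of the families from 1.07 to 1.27. The miR-27 pair was narrower than 15 of the other families and the miR-23 pair narrower than 5. The miR-23 pair is therefore in the upper part of the range of such pairs but not at its end, which was set by miR-302, the embryonic stem cell family, at 24.8-fold.

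**Figure D3:**
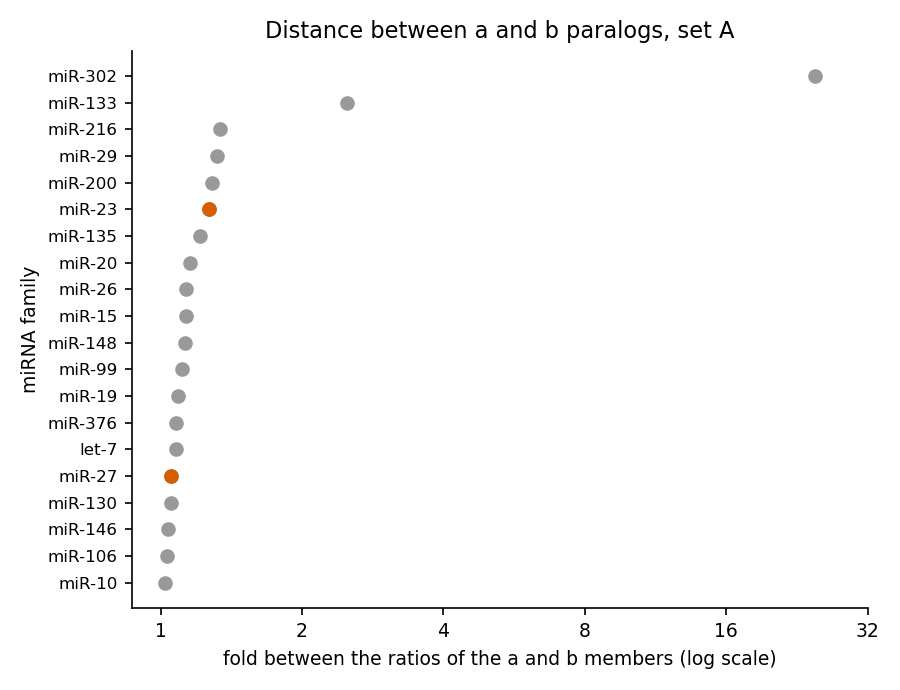
Fold between the ratios of the a and b members (x axis, log scale) in the 20 miRNA families (rows) that have both in assay set A under names without an arm. MiR-23 and miR-27 are in orange. The miR-27 pair lies at 1.05 and the miR-23 pair at 1.27, and the widest pair is miR-302 at 24.8.

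The other strands of the same hairpins, cut from the 5′ arm and usually the scarcer product, had ratios spread wider than those of the members, from 0.724 to 1.59. Their mouse sequences from RefSeq, with the seed in capitals, are shown because they carry other seeds than the members.
miR-27a-5p (miR-27a# on the panel): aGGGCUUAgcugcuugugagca
miR-27b-5p (miR-27b# on the panel): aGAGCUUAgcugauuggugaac
miR-24-1-5p (miR-24-1# on the panel): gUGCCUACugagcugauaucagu
miR-24-2-5p (miR-24-2# on the panel): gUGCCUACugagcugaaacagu
The miR-27 pair, nearly identical in the main strand, differs here at 8 of 22 positions, including G3A inside the seed. Positions were counted from the 5′ end without gaps, so a base gained or lost turns later positions into differences. Positions 17 to 22 of the miR-27 pair all differ in this count. The miR-24 pair keeps 1 seed and the first 16 bases, and by the same count differs at 5 of the 22 positions compared. Here miR-24-1-5p has 23 bases and miR-24-2-5p 22, and both end in CAGU, so the count overstates how far their 3′ ends differ. It is this strand of miR-24 that tells the clusters apart. The panel names the miR-24-1# assay for rat, the miR-24-2# assay for mouse and both starred miR-27 assays for human. The sequences behind these assays were not used here either.

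MiR-27b# stood at 1.59 and miR-27a# at 1.31 in the authors' deposited table, against main strands just below 1. MiR-24-1#, from the b cluster, stood at 0.983 in the authors' deposited table. MiR-24-2#, from the a cluster, stood at 0.724 in the authors' deposited table. MiR-23a# was on the panel but without a ratio in the authors' deposited table. For the starred miR-27 and miR-24 strands the b cluster was the higher of the pair as listed. The log2 ratio was 0.67 for miR-27b# against 0.39 for miR-27a#, and -0.025 for miR-24-1# against -0.47 for miR-24-2#. Repeated control spots of set B had a pooled SD of 0.50, or 0.18 without 1 outlying U87 spot, and these differences could not be tested. With the ratio turned the b cluster would be the lower, as at 0.629 for miR-27b# against 0.766 for miR-27a#. MiR-27b# was the only one of these 4 strands at least 1.5-fold from 1, in a set where 42.7% of miRNA spots were (24.8% above 1 and 17.9% below). With the mean of the 4 other controls as reference miR-27b# was at 1.47, inside the limit, and miR-24-2# at 0.666, barely past it. Without 1 outlying U87 spot in that mean they were at 1.37 and 0.623. With the set median, snoRNA202 alone or U87 alone, miR-27b# was past the limit and miR-24-2# inside it (0.689, 0.698 and 0.909). With snoRNA135 alone or Y1 alone, miR-27b# was inside it and miR-24-2# past it (0.614 and 0.506). With single controls as reference, miR-27a# was below 1 against Y1 alone (0.914) and miR-24-1# above 1 against U87 alone (1.23), a control with 1 outlying spot in set B.

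Against its main strand, miR-27b# was 1.70-fold higher and miR-27a# 1.47-fold higher. MiR-24-1# was 1.05-fold above miR-24, and miR-24-2# 1.29-fold below it. On the log2 scale the miR-27 distances are 0.77 and 0.55. The pooled SD of repeated control spots in set B was 0.50, or 0.18 without 1 outlying U87 spot. Without that spot, a difference between a set B and a set A spot has an SD of 0.24. The starred strands are in set B and the members in set A, and the sets were brought to U6 separately. Of the other controls, Y1, a small RNA of the Ro particle, had a median 0.32 higher in set B than in set A on the log2 scale, while snoRNA135, snoRNA202 and U87 were lower by 0.033 to 0.081. In set B the negative control assay, for a miRNA of a plant, was listed from 2.59 to 3.37 in the authors' deposited table. In set A only 2 spots of that assay carried a ratio in the authors' deposited table, 0.139 and 1.96. Its part in the ratios of the starred strands was not tested. Among 71 other hairpins with both strands listed, the median distance between strands was 1.45-fold, and the starred strand was the higher in 43 and the lower in 28. The distance within the miR-27a hairpin is thus near that median, and that of miR-27b somewhat above it. The other hairpins are not all a set B against a set A spot. Both strands of miR-126 are in set A, and rows of 1 name were averaged over sets, as for miR-214.

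**Figure D4:**
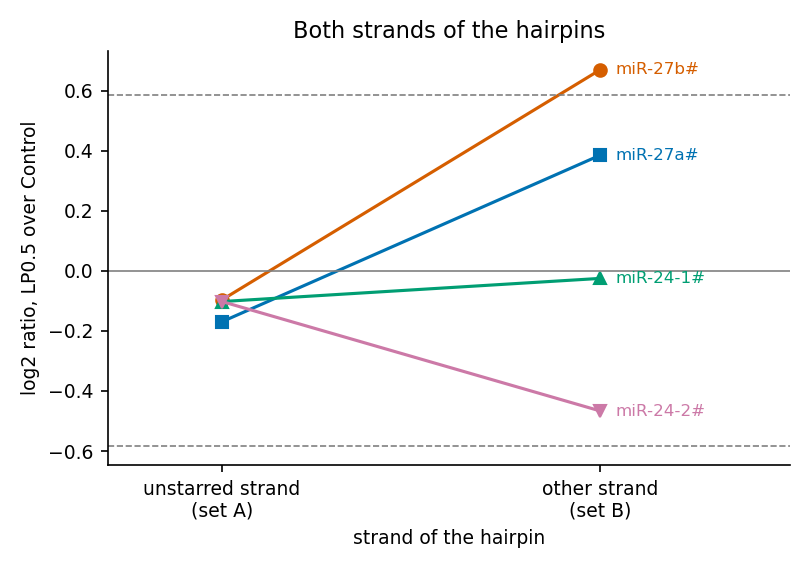
Log2 ratio (LP0.5 over Control, y axis) of the unstarred strand in assay set A (left) and the other strand in set B (right) for 4 hairpins; miR-24-1 and miR-24-2 share 1 unstarred strand. Dashed lines mark 1.5-fold from 1. The left ends bunch just below 0, and the right ends spread from -0.47 for miR-24-2# to 0.67 for miR-27b#.

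A relative of miR-27 on the panel is miR-128, a brain-rich miRNA whose mature strand holds the 7 letters of the miR-27 seed 1 base nearer its 5′ end, shown here in capitals from the RefSeq entry.
miR-128-3p: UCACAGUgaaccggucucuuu
Its panel row, miR-128a, stood at 1.20 in the authors' deposited table, on the other side of 1 from miR-27a and miR-27b. Relative to those it was higher by more than the SD of a difference between control spots in set A, and this too could not be tested.

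MiR-24 belongs to a group described as sustaining insulin gene transcription, with miR-26a, miR-182 and miR-148a. Of these 4, 3 were listed below 1 and 1 above, none at least 1.5-fold from it, and their median ratio was 0.967. Of the 304 set A miRNA spots 159 were below 1 and 28.9% past that limit, with a median of 0.976. Counts among 4 miRNAs cannot be set apart from these shares. In the authors' deposited table miR-26a was listed at 0.989, miR-148a at 0.946 and miR-182, a neuroendocrine miRNA, at 1.15. All 4 lay between 0.796 and 1.19, the 25th and 75th percentiles of set A. With the mean of the other controls as reference the median of the 4 was 0.844, with miR-182 at 1.00, beside 0.852 for set A.

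Markers of the cells an islet preparation can hold were listed on both sides of 1. Of the islet miRNAs, the authors' deposited table lists miR-375 at 1.17 and miR-7, named there for the fly, at 0.918. Of the 4 endothelial miRNAs, 3 were below 1 and 1 above. In the authors' deposited table they ran from 0.647 for the starred strand of miR-126 to 1.28 for miR-221. Their median was 0.926, beside 0.976 over the set A miRNA spots, the set of all 4. The 3 acinar miRNAs, 1 above and 2 below, had a median of 0.970. The 1 above is miR-217, the mean of assays on both sides of 1, at 1.83 in set A and 0.950 in set B of the authors' deposited table. The 4 fibroblast and stellate cell miRNAs, 2 above and 2 below, had a median of 0.805, which rests on miR-143, the mean of discordant assays at 1.11 in set A and 0.190 in set B of the authors' deposited table. With set A assays alone, the set of the members, 3 of the 4 were above 1 and 1 below, from 0.403 to 2.66, with a median of 1.31. The 5 blood cell miRNAs, 3 above and 2 below, had a median of 1.20 and ran from 0.305 to 1.78. Whether cell content takes part in the members' ratios was not tested, and none of these ratios shows a marker's level.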

How the data were processed

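TaqMan RT-PCR with a FAM probe was run on total RNA, per the labels' protocols. Per the file headers, the first deposited table holds a linear ratio (a fold value) of low-protein to control islets for each spot. The submitters' processing notes name limma, with no version or role; the way samples were combined is not given in the sources used here. Another deposited table pairs spots with assay names; its 12 columns of per-sample values match no sample label and were not used, so the planned limma test, its alternatives and any replicate error were not run.

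Tables were joined on the spot code. Blocks numbered 1 and 2 in that code are set A, and the remaining blocks set B, as the last letter of a separate identifier of the miRNA spots shows. Log2 was taken of each ratio, then the mean over spots of 1 name. References were changed by subtracting a set's mean control log2 ratio. MiR-7a was taken from the row named miR-7, miR-126-3p from miR-126, miR-126-5p from its starred row, and miR-199a-5p from miR-199a. Every member and every other strand of its hairpins is named, with the fixed marker and insulin lists. MiR-199a-3p, miR-128a and miR-302 were added after values were seen, as were the comparisons with other a and b pairs and other hairpins. Members and lists were chosen with earlier results of these data known. The functions were tested on simulated data. Python 3.11.15, numpy 2.4.6, pandas 2.3.3 and matplotlib 3.10.9 were used.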

Additional observations from a re-analysis of the deposited data

How the results depend on the processing

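The median log2 ratio of the 5 members, -0.10 relative to U6, stayed below 0 under every reference run. It was -0.30 with snoRNA135, snoRNA202, U87 and Y1 together, and with 1 control alone -0.36 (snoRNA135), -0.35 (Y1) and -0.25 (snoRNA202), each a move of more than the SD of control spots, 0.15. U87 alone, the set median, starred rows included and leaving out each member in turn moved it by less. A change of reference shifts every set A spot by the same amount, so these moves are not particular to the members. The median of the set A miRNA spots, -0.035 relative to U6, was -0.23 with snoRNA135, snoRNA202, U87 and Y1 together. No member reached 1.5-fold under any of these references, or 2-fold as deposited. Of the 304 set A miRNA spots, 34 were past 1.5-fold above 1 and 71 below with those 4 controls together. With snoRNA135 alone these counts were 32 and 78. A count of 0 among 5 members cannot be set apart from such shares, and the share past 2-fold is not given here. The differences between paralogs and clusters stayed as they were with the set median as reference, since both spots lie in set A. The median of the 4 starred strands, 0.18 relative to U6, turned with the reference: it was -0.036 with the other controls without 1 outlying U87 spot, -0.057 with snoRNA135 alone, -0.33 with Y1 alone and 0.51 with U87 alone, which rests on that spot. Single controls, the reference without that U87 spot, references for the starred strands, lists from set A alone and leaving out a member were chosen after seeing the data. An analysis of mouse-named assays alone gave no value, as no member is so named. No paired analysis was possible because the columns of per-sample values carry no replicate number and no group. The ratio table gives neither depth nor signal, so the precision of single ratios is unknown.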
